A study of Mus musculus with 4 samples.

Results

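Respiratory complex I (NADH:ubiquinone oxidoreductase) takes electrons from NADH, passes them to ubiquinone in the mitochondrial inner membrane and pumps protons. It is built from a catalytic core, part of which is encoded by mitochondrial DNA, and from many accessory subunits encoded in the nucleus that are needed for its assembly and stability. In brown adipocytes, which are rich in mitochondria, it feeds the respiratory chain whose proton gradient is dissipated as heat. The genes described here are 5 accessory subunits of the membrane arm, Ndufa1, Ndufa8, Ndufc2, Ndufb4 and Ndufb3, out of 1615 genes that could be given a name on the array. They were chosen because the study's list of changed genes, drawn from these same arrays, pairs a probe with each of them. The increase of these 5 probes is therefore what selected them and is given as a description. The array held 33012 probes, and 6 of them could be linked to these genes by symbol or identifier. They are the 5 on that list (the listed probes) and 1 further probe, 898453. That probe shares a gene identifier with the listed Ndufc2 probe and was not selected. Further probes of these genes may lie among those without a name.

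NT-PGC-1α is a short splice form of the transcriptional coactivator PGC-1α that keeps its N-terminal activation and nuclear receptor interaction domains. Immortalized brown preadipocytes (strain FVB) carried a lentivirus with NT-PGC-1α, tagged with hemagglutinin according to the methods, or the empty vector, and cells of both groups went through 2 days of induction with insulin, triiodothyronine, isobutylmethylxanthine, dexamethasone and indomethacin and 5 days with insulin and triiodothyronine. RNA was pooled within each group (3 RNA samples per pool by the methods, 2 by the deposited series text), and each pool went onto 2 ABI Mouse Genome Survey arrays, A and B, which makes 4 arrays in all. The arrays of a group share 1 pool, so the folds given here compare 2 pools of 1 cell model and their error is that between arrays. They carry no p-value. Of 22 marker symbols for adipocytes, brown adipocytes and other cell types, 3 had a named probe, and none of the 7 adipocyte symbols did, so the labelled cell type could not be checked against its defining markers.

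The promoters of the 3 genes with the largest folds, Ndufb4, Ndufa1 and Ndufa8, are shown. Full-length PGC-1α is known as a coactivator of factors such as NRF1 and ERRα, whose motifs can be looked for upstream of respiratory genes. Whether the shorter NT-PGC-1α acts with either factor was not measured here. Each promoter runs 5′ to 3′ on the strand of the gene, from 250 bases before to 50 bases after the annotated start, and was taken from RefSeq (GRCm38.p6). Capitals mark matches to an NRF1 motif (GCGCANGCG) or an ERRα motif (TNAAGGTCA) on either strand. The windows lie at chr16:37654319-37654618 (minus strand) for Ndufb4, chrX:37191189-37191488 (minus strand) for Ndufa1 and chr2:36049289-36049588 (minus strand) for Ndufa8.
Ndufb4: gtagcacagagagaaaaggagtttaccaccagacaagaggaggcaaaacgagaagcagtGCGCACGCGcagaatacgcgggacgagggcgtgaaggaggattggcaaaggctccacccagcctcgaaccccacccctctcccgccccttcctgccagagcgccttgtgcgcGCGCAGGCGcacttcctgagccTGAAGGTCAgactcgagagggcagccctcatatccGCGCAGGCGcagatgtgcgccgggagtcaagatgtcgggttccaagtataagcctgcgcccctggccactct
Ndufa1: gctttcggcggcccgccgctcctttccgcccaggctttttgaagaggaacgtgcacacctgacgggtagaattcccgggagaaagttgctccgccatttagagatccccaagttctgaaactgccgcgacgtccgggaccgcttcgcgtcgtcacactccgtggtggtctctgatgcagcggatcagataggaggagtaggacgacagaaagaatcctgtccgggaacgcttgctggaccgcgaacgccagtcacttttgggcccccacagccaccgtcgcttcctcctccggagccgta
Ndufa8: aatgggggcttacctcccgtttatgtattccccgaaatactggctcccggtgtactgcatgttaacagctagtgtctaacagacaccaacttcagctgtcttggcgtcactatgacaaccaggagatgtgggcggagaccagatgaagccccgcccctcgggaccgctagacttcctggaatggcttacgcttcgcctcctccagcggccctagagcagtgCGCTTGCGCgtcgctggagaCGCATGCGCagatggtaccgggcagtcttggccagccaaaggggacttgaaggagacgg

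The Ndufb4 window held 3 NRF1 matches (GCGCACGCG once and GCGCAGGCG at both other places) and 1 ERRα match (TGAAGGTCA), none of which overlapped. Counted from the annotated start, the first base of these NRF1 matches lay 191, 79 and 22 bases before the start, and that of the ERRα match 57 bases before it. The Ndufa8 window held 2 NRF1 matches on the opposite strand (read along the gene as CGCTTGCGC and CGCATGCGC), whose first bases lay 29 and 9 bases before the start. No match to either motif was found in the windows of Ndufa1, Ndufc2 and Ndufb3. Motifs for ETS factors (CCGGAAG), YY1 (AANATGGCG) and CRE-binding factors (TGACGTCA) were searched in the same way and had no match in any of the 5 windows. Among all 32851 promoter windows of the same length, 6.25% held the NRF1 motif, 1.28% the ERRα motif, 8.86% the ETS motif, 2.38% the YY1 motif and 1.79% the CRE motif. Among 29 other complex I subunit genes, 6 held the NRF1 motif, 0 the ERRα motif, 4 the ETS motif, 7 the YY1 motif and 3 the CRE motif. A gene was counted where any of its windows matched, and genes on 1 chromosome were left out of these 29. A match is a stretch of letters and not a measured binding site, and no binding was measured here.

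**Figure D1:**
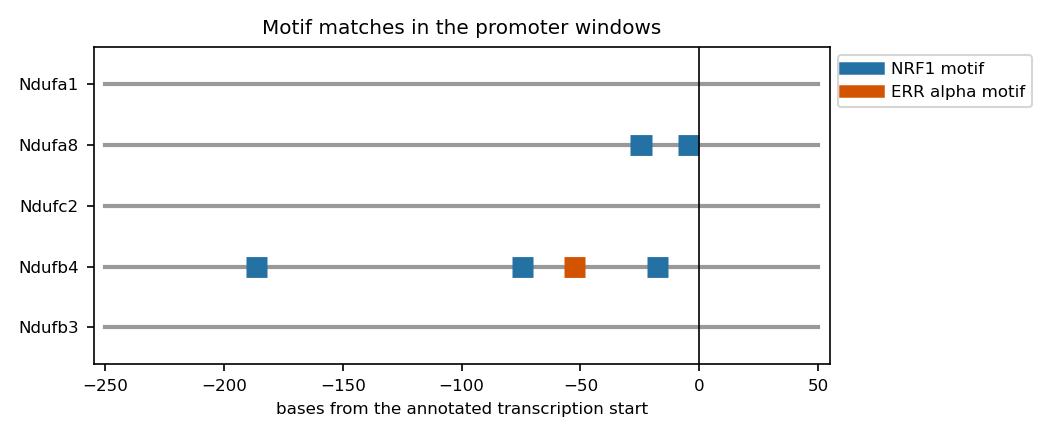
Positions of motif matches in the promoter windows of the 5 genes, in bases from the annotated transcription start, which the vertical line marks. Blue blocks are NRF1 matches and the orange block is the ERRα match. Ndufb4 holds 4 blocks, Ndufa8 holds 2 and the other 3 windows hold none.

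The array signals set the frame for reading the complex I values. The median signal lay between 395.1 and 448.3 on the 4 arrays before normalization. The upper quartile differed by group: 3147 (A) and 2779 (B) with NT-PGC-1α, and 3780 (A) and 3335 (B) with the empty vector. Quantile normalization makes these distributions alike, so it affects the folds of bright probes. Ppargc1a, the gene that was overexpressed, had empty vector signals of 113.9 (array A) and 135.7 (array B) at its listed probe (847307), and NT-PGC-1α signals of 1078 (A) and 713.9 (B), all after normalization. The ratio of the pools was 7.06. The range of a fold, here and throughout, is taken over the 4 ways to divide 1 array of the NT-PGC-1α pool by 1 of the empty vector pool, and for this probe ran from 5.26 to 9.46. Its empty vector signals were among the lowest on the array, and whether they exceeded background is not known, so this fold is not firmly measured. A second probe that shares the gene identifier (747719) gave empty vector signals of 225.6 (A) and 148.6 (B), and NT-PGC-1α signals of 257.9 (A) and 345.2 (B). Its groups did not overlap either, but its fold was 1.63 with a range of 1.14 to 2.32. Limma, a linear model fitted across all probes, did not call it. The sources used here do not give this probe's place on the transcript. Whether it can detect the short NT-PGC-1α form is therefore not known. The probes linked to the genes described here were among the bright ones. Of all probes, 8.61% had a mean signal at or above that of the dimmest of them, Ndufb3, and 1.45% at or above that of the brightest, Ndufb4. These shares say how far the probes lie from the dim end of the array and do not rank the genes, since signals of different probes cannot be compared. Among the 2842 bright probes, those at or above the mean signal of Ndufb3, arrays A and B of 1 pool differed by at least 25% for 9.29% (empty vector) and 8.44% (NT-PGC-1α).

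All 5 listed probes had both NT-PGC-1α arrays above both empty vector arrays and were at least 25% higher, the lower of the study's fold thresholds. On the whole array this call was made for 26.2% of probes, and among the 2842 bright probes for 15.3%. The 5 probes were selected on this contrast, so nothing is read from the difference between their count and these shares. At 1.5-fold, 2 of the 5 were called, Ndufb4 and Ndufa1, beside 16.9% of all probes and 4.29% of the bright ones. The median fold of the 5 was 1.41, against 1.01 over all probes and 0.998 over the bright ones. Fewer cells of a type and less RNA per cell cannot be told apart in such pools. The named markers of other cell types moved with the groups: Cd68, a macrophage marker, went from empty vector signals of 980.9 and 961.1 to 402.1 and 397.5, and Myog, a muscle transcription factor, from 666.5 and 561.7 to 191.0 and 254.2, in the order A and B. These were the named members among 3 macrophage and 3 muscle symbols, the study's list chose both on this contrast, and their part in the complex I result was not tested. Myog was dim: 51.5% of all probes had a mean signal at or above it. Its NT-PGC-1α arrays differed by 1.33-fold, and whether its signals exceeded background is not known.

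**Figure D2:**
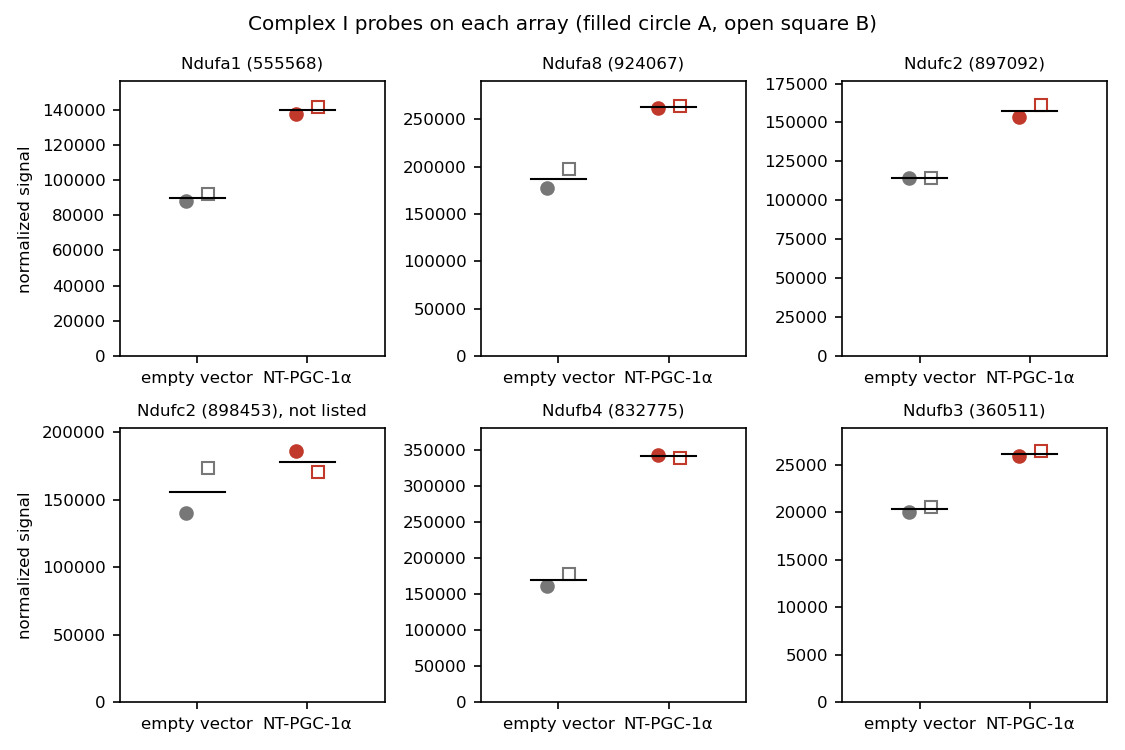
Normalized signal (vertical axes from 0) of each of the 6 complex I probes on the empty vector (grey) and NT-PGC-1α (red) arrays. Filled circles are array A, open squares array B, and the horizontal line is the geometric mean of the 2 arrays of a pool. The groups are separate for 5 probes and overlap for Ndufc2 probe 898453.

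Ndufa1 and Ndufa8 are accessory subunits of the part of the membrane arm that surrounds the mitochondrially encoded ND1, next to the ubiquinone site. Ndufa1, a small single-span membrane protein encoded on the X chromosome, gave empty vector signals of 88069 (A) and 92183 (B), and NT-PGC-1α signals of 137758 (A) and 141919 (B). Both NT-PGC-1α arrays were higher, and the fold was 1.55 with a range of 1.49 to 1.61 over the pairings. Arrays A and B of a pool differed by at most 1.05-fold at this probe. Of all probes, 15.9% had a fold at least this high, and of the bright probes 3.24%.

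Ndufa8, a protein with paired cysteine motifs that lies on the intermembrane space side of the complex, gave 177912 (A) and 197451 (B) in the empty vector pool, and 262602 (A) and 264312 (B) in the NT-PGC-1α pool. The groups did not overlap, and the fold was 1.41, ranging from 1.33 to 1.49. The empty vector arrays differed from each other by 1.11-fold and the NT-PGC-1α arrays by 1.01-fold. Array B over array B gave 1.34 and array A over array A gave 1.48. A fold at least as high was seen for 21.0% of all probes and 7.35% of the bright ones.

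Ndufc2 belongs to the part of the membrane arm around ND2. Its listed probe (897092) gave 114315 on both empty vector arrays, where the normalization happened to assign the same value, and 153731 and 160918 with NT-PGC-1α. Its fold was 1.38, ranging from 1.34 to 1.41, and 22.3% of all probes and 8.76% of the bright ones had a fold at least as high. Before normalization the empty vector arrays read 125264 and 109225 and the NT-PGC-1α arrays 158725 and 150404, with no overlap either.

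The second probe, 898453, was the one measurement among the 6 that the study's list had not selected. Its empty vector signals were 140299.5 (A) and 173295 (B), and its NT-PGC-1α signals were 185799.7 (A) and 170919 (B). Empty vector array B lay above NT-PGC-1α array B, so the groups overlapped, and the fold of 1.14 ranged from 0.986 to 1.32 over the pairings. The empty vector arrays differed by 1.24-fold at this probe, more than the pools did. It was not called, nor did limma call it. Probe 897092 carries 3 gene identifiers (mCG7057.2, mCG141303 and mCG55570.1) and probe 898453 carries mCG141303 alone. The sources used here do not say which of the 3 is Ndufc2. Probe 898453 may therefore report another gene that shares sequence with Ndufc2, and probe 897092 may report more than 1 gene. Probe 898453, at 1.14-fold and with overlapping groups, lay outside the selection. Ndufb3, at 1.29-fold and with separate groups, lay just above the lower of the study's fold thresholds.

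Ndufb4 and Ndufb3 belong to the distal membrane arm, Ndufb4 to the part around ND4 and Ndufb3 to the part around ND5. Ndufb4 gave 161861 (A) and 177557 (B) in the empty vector pool, and 342745 (A) and 338911 (B) in the NT-PGC-1α pool. The arrays of the groups were far apart, with a fold of 2.01 and a range of 1.91 to 2.12. A fold at least as high was seen for 8.24% of all probes but for 0.669% of the bright ones. RefSeq lists 2 further protein-coding genes with this name, Ndufb4b and Ndufb4c, and whether the probe tells them apart was not examined. The plot of motif positions shows that this gene was also the one among the 5 with an ERRα match, and 1 gene does not allow a relation between motif and fold to be read.

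Ndufb3, a small membrane subunit, gave empty vector signals of 20042 (A) and 20623 (B), and NT-PGC-1α signals of 25955 (A) and 26429 (B). The groups were separate and the arrays of a pool differed by at most 1.03-fold, but the fold was the lowest of the 5, 1.29 with a range of 1.26 to 1.32. A fold at least as high was seen for 26.8% of all probes and 13.1% of the bright ones. Of the 5 it was the nearest to the threshold of 25% higher. The methods give a p and a fold threshold for the arrays without naming the test beside them. Student's t-test between arrays, unadjusted and with that fold threshold, called all 5 listed probes, beside 13.6% of all probes. This test and limma take the arrays of a pool as replicates, so they do not compare the conditions. Limma, at a Benjamini-Hochberg adjusted threshold of 0.05, called the other 4 and not Ndufb3, and it called 11.9% of all probes as higher. With the array letter as a block it called 0% of them.

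In the order of folds, Ndufb4 was followed by Ndufa1, Ndufa8, Ndufc2 (897092), Ndufb3 and Ndufc2 (898453). The ranges over pairings of neighbours did not overlap between Ndufb4 and Ndufa1, between Ndufa1 and Ndufa8, and between Ndufc2 (897092) and Ndufb3. They overlapped between Ndufa8 and Ndufc2 (897092) and between Ndufb3 and Ndufc2 (898453), so these pairs could not be ordered beyond the error between arrays. All these ranges are those under quantile normalization. Without normalization, the ranges of Ndufa1 and Ndufa8 overlapped, as did those of Ndufc2 (897092) and Ndufb3. Centring each array on its 75th percentile also made the ranges of Ndufa1 and Ndufa8 overlap.

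**Figure D3:**
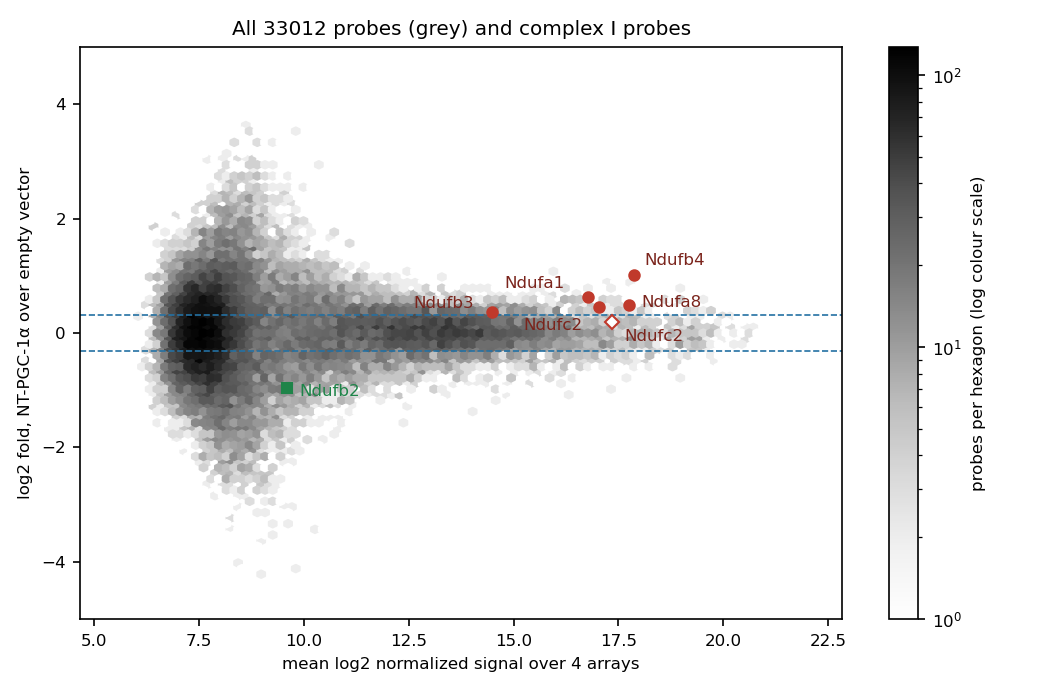
Log2 fold (NT-PGC-1α over empty vector) against the mean log2 normalized signal over 4 arrays. Grey hexagons hold all 33012 probes on a log colour scale, and dashed lines mark a ratio 25% above 1 and its reciprocal. Red circles are the 5 listed probes, the open diamond is Ndufc2 probe 898453 and the green square is Ndufb2. The red symbols lie toward the bright end, and Ndufb2 lies at a lower signal and below the lower dashed line.

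The same lists were searched for other genes of the complex, by 45 symbols of subunits and 18 of assembly factors. No assembly factor had a named probe. Ndufb2, an accessory subunit of the ND5 part of the membrane arm like Ndufb3, is also on the study's list and was lower. Its empty vector signals were 995.4 (A) and 1178 (B), against 614.3 (A) and 505.6 (B) in the NT-PGC-1α pool, 1.94-fold lower with a range of 1.62 to 2.33. The groups did not overlap, and 90.6% of all probes had a fold at or above that of Ndufb2 (0.515). The call in this direction, with the empty vector pool at least 25% above the NT-PGC-1α pool and no overlap, was made for 26% of all probes. The arrays of a pool differed by up to 1.22-fold at this probe, and 38.5% of all probes had a mean signal at or above it. Since 31377 of the 33012 probes have no symbol here, most subunits of complex I were not analysed here, and the direction of the 5 genes does not extend to the complex.

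The study's list also holds other respiratory chain probes. The 10 probes of cytochrome c and complexes III and IV, for 8 genes, had a median fold of 1.43 and ranged from 0.456 to 1.78, with 8 above 1 and 2 below. The 2 ATP synthase probes had folds of 1.30 and 1.60. With 1 pool per group the difference between these groups of genes and complex I was not tested, and all of them were selected on the same contrast. Among 1629 probes of other named genes, those whose profile over the 4 arrays was closest to the mean profile of the 5 listed probes were Arfgap1, Sec14l1 and Ppm1l. Their folds were 1.497, 1.53 and 1.53, and the sums of squared log2 differences from that profile were 0.00042, 0.000717 and 0.000795 over 4 arrays. With 4 arrays from 2 pools such a likeness says little beyond a similar fold with a small error between arrays.

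The folds depended on how the arrays were scaled, and each of the 6 stayed above 1 under the settings tried. The listed probes had been selected on this direction. For Ndufc2 probe 898453 the range over pairings reached below 1, to 0.986 under quantile normalization and 0.951 without normalization. Without normalization, Ndufb3 (1.16), Ndufc2 (1.32), Ndufa8 (1.36), Ndufa1 (1.48) and Ndufb4 (1.97) were lower, which took Ndufb3 below the threshold of 25% higher and Ndufa1 below 1.5. Centring each array on its 75th percentile gave 1.40, 1.59, 1.63, 1.77 and 2.36 for the same genes, while the median of all probes moved to 1.17. Relative to that median they were 1.20, 1.36, 1.40, 1.52 and 2.03. Ndufc2 probe 898453 passed the call at 25% higher under this centring (1.31, or 1.13 relative to the median). Median centring, like no normalization, took Ndufb3 (1.18) below the threshold of 25% higher and Ndufa1 (1.49) below 1.5.

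**Figure D4:**
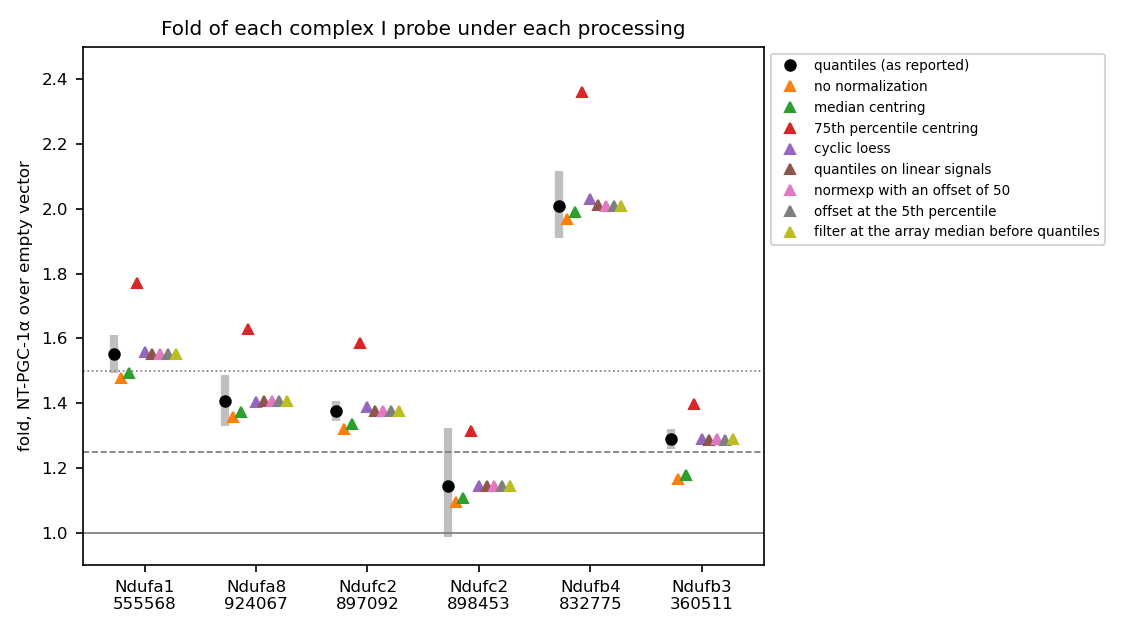
Fold of each complex I probe (NT-PGC-1α over empty vector) under each way of processing. Black circles are quantile normalization with the range over the 4 pairings of arrays as a grey bar, and triangles are the alternatives. The solid, dashed and dotted lines mark a fold of 1, a signal 25% higher and a fold of 1.5. Ndufb4 stays near or above 1.97, and Ndufb3 falls below the dashed line without normalization (1.16) and under median centring (1.18).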

How the data were processed

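The values were probe intensities that the authors deposited for 4 arrays, on a linear scale and not normalized across arrays. Arrays were read on an Applied Biosystems chemiluminescent analyzer with the ABarray package, and the submitters' notes name R 2.2.1. Whether background was subtracted is not given in the sources used here, and the signal to noise and flag filters of the study were not applied, so no probe was called detected or absent. Intensities were log2 transformed and quantile normalized in R 4.3.3 with limma 3.58.1, as in the study's methods, and 0 columns were left unused. A fold is the difference of mean log2 signals on the linear scale, with its range over 4 pairings as error. A probe was called where it reached 1.25-fold with no overlap between groups. Bright probes were defined after seeing the data, by the dimmest probe of the described genes, Ndufb3.

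Member rows were found through the symbols of the study's list of changed genes and shared mCG identifiers without version. All 1342 probes of that list were found, and RefSeq accessions named 293 further probes (GRCm38.p6, for names alone). Members and lists were chosen with earlier results of these data known. The text names the 5 genes, Ppargc1a, fixed complex I and marker lists, and the 3 nearest profiles. 1 further result for complex I is not reported here. The calculation was tested on simulated data. Python 3.11.15, numpy 2.4.6, pandas 2.3.3, scipy 1.17.1 and matplotlib 3.10.9 did the rest. Alternatives were other scalings, background offsets, a filter, leaving out each array, a 1.5-fold threshold, Student's t-test (named in the methods for comparisons in general), and limma with or without the array letter as a block. The number of arrays limits the precision.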

Additional observations from a re-analysis of the deposited data

How the results depend on the processing

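The number of listed complex I probes called as higher was 5 and stayed at 4 or 5 under all scalings, background offsets and the filter. It was 2 at a 1.5-fold threshold. Student's t-test between arrays, unadjusted and with the threshold of 25% higher, called 5 (13.6% of all probes) and limma 4, both against the error between arrays, and the probes were selected on this contrast. With the array letter as a replicate block, limma called 0 of the 5 and 0 of all probes, with fewer residual degrees of freedom, and moved no fold. The median log2 fold of the 5 was 0.49. It was 0.70 under 75th percentile centring, and between 0.46 and 0.57 with any 1 array left out, the highest without empty vector array B. For the second Ndufc2 probe the log2 fold was 0.19, and 0.39 under 75th percentile centring, where 1 such probe was called in place of 0. With any 1 array left out its log2 fold lay between 0.04 and 0.34 and the count between 0 and 1. Without empty vector array B it was called at 1.27-fold, and without empty vector array A the fold was 1.03. Without NT-PGC-1α array A it was 1.10, and without NT-PGC-1α array B it was 1.19 and the groups no longer overlapped. Matching identifiers with their version, or rows with the shared identifier alone, found the same probe. Leaving out any 1 array kept the other folds within 1.93 to 2.12 for Ndufb4, 1.51 to 1.59 for Ndufa1, 1.34 to 1.49 for Ndufa8, 1.34 to 1.41 for Ndufc2 and 1.27 to 1.31 for Ndufb3. No fold reversed. Divided by the median fold of all probes, each fold was the same without normalization, under median centring and under 75th percentile centring (1.20 for Ndufb3). These scalings therefore differ by a factor common to all probes. The cause of the other differences was not tested.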
